A study of Mus musculus with 50 samples.

Results

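The third hindlimb digit of male C57Bl/6 mice, 9 to 10 weeks old per the study's methods, was amputated through the terminal phalanx (P3) at an intermediate level, and the wound bed was compared between 14 days and 0 hours after the amputation. The comparison holds 6 of the 50 samples of the series, 3 intermediate digits collected at 14 days and 3 collected at the time of amputation, and it was taken from the group and the time in the sample labels. Per the labels, 52%, 53% and 55% of P3 had been removed from the 0-hour digits (replicates 1, 2 and 3) and 42%, 52% and 54% from the 14-day digits. The 2 groups share strain, sex, digit and amputation level class and differ in the time since amputation, and no allele or agent is named for either. Each library held the poly(A)-selected RNA of 1 digit, described in the labels as a mixture of cell types around the wound bed. In such bulk RNA, more cells of a type cannot be told apart from more RNA per cell.

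The terminal phalanx of the mouse is a small bone enclosed by nail, skin and loose connective tissue. After amputation, osteoclasts first resorb bone at the stump, the epidermis closes over it, and connective tissue cells then gather beneath the wound and lay down collagen matrix and new woven bone. Fibrillar collagens are secreted as procollagens, trimmed and cross-linked outside the cell by dedicated enzymes, and remodelled by matrix metalloproteinases, and the bone formed on this matrix is mineralised by osteoblasts under the transcription factors Runx2 and Sp7.

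The 6 libraries held between 3408916 and 11980697 expected counts assigned to genes. In each group, 2 digits carried dates of the earlier of the 2 periods seen in the labels and replicate 1 carried a date of the later period. The 14-day replicate 1 shares its animal mark, date and side with a non-regenerative 14-day digit labelled at 80%. These 2 libraries were not the same library, since their counts differed with a chi-square of 57.0 per degree of freedom. In the group collected at the time of amputation, the 2 digits of the earlier period each share these marks with a non-regenerative digit of another time. Mark, date and side thus do not identify a single digit, and whether a label is wrong cannot be told from them. The 14-day replicate 1 was kept as labelled, and results that it moves are given with and without it. The keratinocyte genes Krt5 and Krt14 and collagen Col1a1 were present in all 6 digits.

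Of the 13334 genes tested with edgeR's quasi-likelihood test, 199 (1.49%) were higher at 14 days and 25 (0.187%) were lower, with p-values adjusted by Benjamini-Hochberg. A called gene here had an adjusted p under 0.05, and its group means, each raised by 1, differed over 2-fold. A normalized count is the expected count scaled by the TMM library size to the average library of the 6 digits, and all log2 fold changes are 14 days minus 0 hours. The median log2 fold change of all tested genes was -0.01. At an unadjusted p under 0.05, 1092 of the 13334 genes were higher and 698 lower, and DESeq2, run as an alternative, called 507 genes. Counts of list members given below at that p or with DESeq2 are to be read beside these. The 3 digits of one group lay wholly above the 3 of the other for 1367 genes (10.3%) that were higher and 1287 genes (9.65%) that were lower at 14 days. All 199 and all 25 called genes had the same direction in the replicate 1 digits of the later period alone. These digits were part of the fit that called the genes, so this was likely beforehand and is no separate support. The counts rested on single digits. Without 0-hour replicate 2 they fell to 17 higher and 6 lower, without 14-day replicate 2 to 52 and 9, without 14-day replicate 3 to 73 and 9, without 0-hour replicate 1 they were 86 and 35, and without 0-hour replicate 3 they were 163 and 16. Without 14-day replicate 1 they rose to 322 and 71. The genes called in all 6 of these fits were Adam12, C1qtnf6, Col12a1, Col24a1, Col6a3, Cthrc1, Edil3, Fbn2, Fkbp10, Gxylt2, P3h1, Ppic, Rcn3, Runx2, Thbs2 and Wisp1 among those that rose, and Alas2, Hba-a1, Hba-a2, Hbb-bs, Hbb-bt and Myoc among those that fell, which makes 16 and 6.

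**Figure D1:**
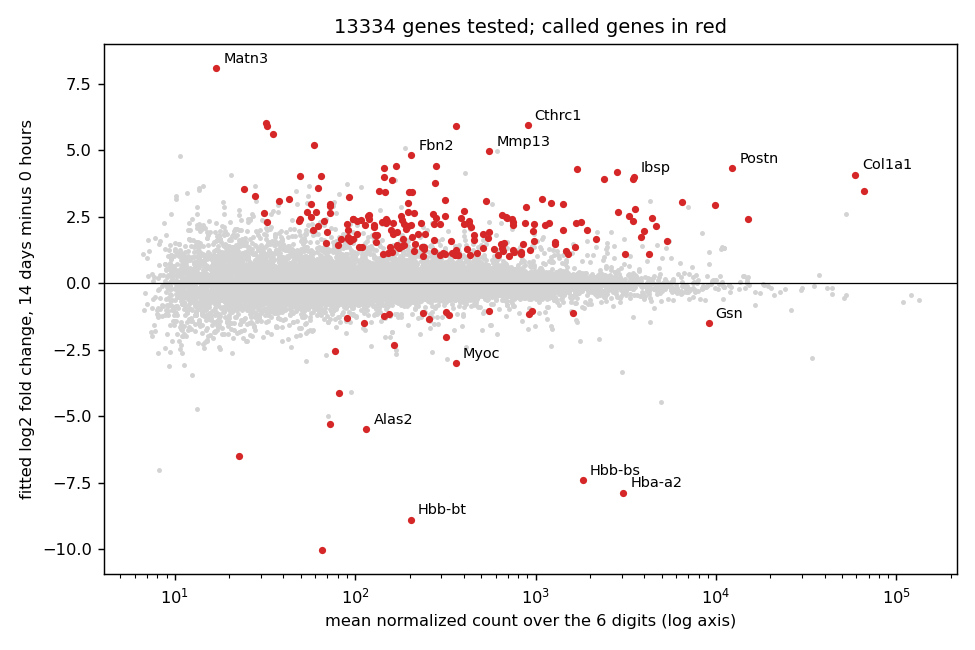
Fitted log2 fold change (14 days minus 0 hours) against the mean normalized count over the 6 intermediate digits (log axis), with 1 point per tested gene and called genes in red. The 199 called genes above 0 lie at low and high counts, and the lowest red points below 0 are haemoglobin genes.

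Among called genes with a mean of at least 100 normalized counts and no overlap between the groups, Cthrc1, C1qtnf3 and Capn6 had the largest log2 fold changes, and several matrix genes followed. Cthrc1 (chr15:39076932-39087121, GRCm38), a secreted glycoprotein known from injured arteries and wound fibroblasts, had normalized counts of 23.95, 9.10 and 58.6 in the 0-hour digits and 860, 2148 and 2311 in the 14-day digits. Every 14-day digit was above every 0-hour digit, and the log2 fold change was 5.94 ± 0.63 (SE, n = 3 digits per group, edgeR adjusted p = 0.00494). Postn (chr3:54361109-54391037), a matricellular protein of periosteum and ligament, had 695, 982 and 1849 at 0 hours and 6663, 30880 and 32700 at 14 days. The 42% digit was low among the 14-day digits for Postn, and the log2 fold change was 4.32 ± 0.64 (SE, edgeR adjusted p = 0.0151). Col1a1 (chr11:94936224-94953042), which encodes the main chain of bone and skin collagen, had 3882, 4481 and 11380 at 0 hours and 80520, 145900 and 105800 at 14 days. The groups did not overlap, and the log2 fold change was 4.07 ± 0.47 (SE, edgeR adjusted p = 0.00652).

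C1qtnf3, a secreted C1q-related protein of cartilage and fibroblasts, had 11.7, 10.1 and 13.2 normalized counts at 0 hours and 212, 755 and 1164 at 14 days, a log2 fold change of 5.92 ± 0.65 (SE, edgeR adjusted p = 0.00515). Its relative C1qtnf6 rose with a log2 fold change of 4.39. Fbn2, which encodes the fibrillin of developing microfibrils, had 12.9, 19.2 and 8.80 at 0 hours and 270, 419 and 497 at 14 days. Edil3, a secreted integrin ligand, had 14.7, 19.2 and 10.3 at 0 hours and 240, 334 and 386 at 14 days. Both genes were low in the fresh wound and, with Wisp1, Hba-a2 and Hbb-bt, had the smallest adjusted p of all genes tested, 0.00107 with edgeR. Wisp1, a matricellular CCN protein, had 9.21, 17.2 and 16.1 at 0 hours and 239, 322 and 267 at 14 days, without overlap. Capn6, a calpain without protease activity, had 1.23, 0 and 10.3 at 0 hours and 119, 122 and 103 at 14 days. The remaining genes among the 12 largest rises were Mmp13, Col11a1 and Col12a1, which are given with their groups.

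**Figure D2:**
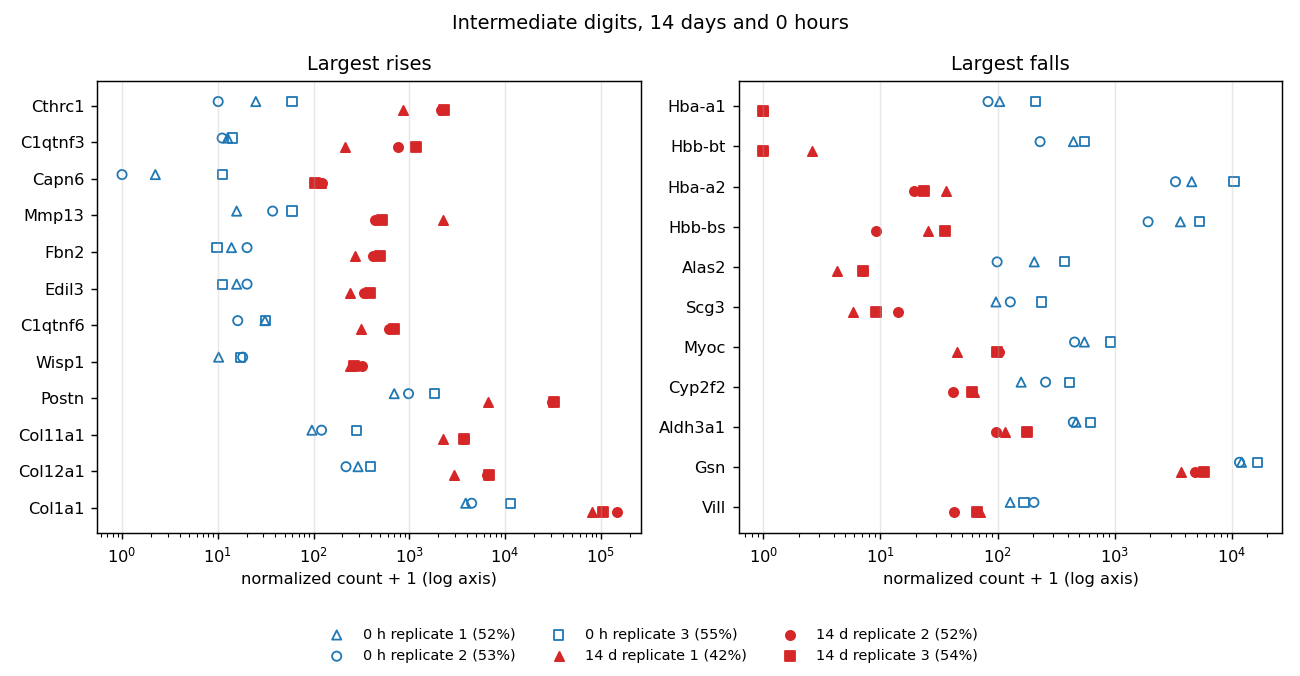
Normalized count plus 1 (log axis) of 12 genes that rose and 11 that fell, chosen by the size of their change, with 1 symbol per digit, open blue for 0 hours and filled red for 14 days, and the amputation level of each digit in the legend. The groups do not overlap for any of these genes, which the choice of these genes required.

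In the list of collagens and matrix proteins, 24 of 36 tested members were called higher and none lower, against 1.49% and 0.187% of all genes, with a median log2 fold change of 2.43. The summed normalized TPM of the list, a scale per transcript length, was 3189, 4021 and 7822 in the 0-hour digits and 18110, 40090 and 37060 in the 14-day digits. The lowest 14-day value was that of the 42% digit, and it was above every 0-hour digit. Of the fibril-forming chains, Col1a2 went from 6323, 7714 and 18690 normalized counts to 75140, 154900 and 134200 (log2 fold change 3.48), and Col5a1 and Col5a2 rose with log2 fold changes of 3.05 and 2.94. Col12a1, a collagen that sits on the surface of type I fibrils, had 291, 217 and 393 at 0 hours and 2940, 6407 and 6768 at 14 days (log2 fold change 4.16 ± 0.38, SE, edgeR adjusted p = 0.00263). The chains of the beaded-filament collagen VI rose with log2 fold changes of 2.45 (Col6a1), 2.78 (Col6a2) and 3.90 (Col6a3). The basement membrane chains Col4a1 and Col4a2 rose less, with log2 fold changes of 1.67 and 1.36. Among glycoproteins and proteoglycans, Thbs2 (3.93), Tnc (2.97), Tnn (2.69), Lum (2.53), Sparc (2.41) and Bgn (2.15) rose on the same log2 scale. Without the 42% digit 27 of the 36 members were called, and without 0-hour replicate 2 only 5 were, with a median log2 fold change of 2.36.

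Some of the enzymes that fold and cross-link collagen were also higher. In the list of collagen processing genes, 7 of 22 tested members were called higher and none lower, with a median log2 fold change of 1.25, and without 0-hour replicate 2 there were 2. Lox, the oxidase that starts cross-linking, had 138, 175 and 343 normalized counts at 0 hours and 1625, 2106 and 2134 at 14 days (log2 fold change 3.18 ± 0.33, SE, edgeR adjusted p = 0.00494). P4ha3, a subunit of prolyl 4-hydroxylase, had 9.21, 14.2 and 30.8 at 0 hours and 154, 300.3 and 363 at 14 days (log2 fold change 4.003). P3h1, prolyl 3-hydroxylase, had 76.8, 92.0 and 68.9 at 0 hours and 331, 431 and 386 at 14 days, and Fkbp10, a collagen chaperone mutated in brittle bone disease, had 136, 142 and 79.2 and then 575, 753 and 628. The adjusted p-values of P3h1 and Fkbp10 were 0.00256 and 0.00402 with edgeR. Plod2, Serpinh1 and Bmp1, a lysyl hydroxylase, the collagen chaperone of the endoplasmic reticulum and the procollagen C-proteinase, were also called, with log2 fold changes of 2.34, 1.96 and 1.24.

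Among matrix metalloproteinases and their inhibitors, 6 of 13 tested members were called higher and none lower (median log2 fold change 1.96). Mmp13 (chr9:7272514-7283331), the collagenase of bone and hypertrophic cartilage, had 14.7, 36.4 and 58.6 normalized counts at 0 hours and 2258, 441 and 519 at 14 days. The 42% digit was the high one here, and the groups did not overlap (log2 fold change 4.97 ± 0.78, SE, edgeR adjusted p = 0.0175). Mmp14, a membrane-bound collagenase that activates Mmp2, had 521, 561 and 654 at 0 hours and 1814, 3027 and 3507 at 14 days (log2 fold change 2.27). Mmp2, the gelatinase, had 962, 987 and 1472 at 0 hours and 2743, 6778 and 7866 at 14 days (log2 fold change 2.35). The inhibitor Timp2, which takes part in that activation, rose with a log2 fold change of 1.75, and Mmp11 and Mmp12 were the other 2 called members. Without 0-hour replicate 2 no member passed the threshold in edgeR, with a median of 2.07.

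**Figure D3:**
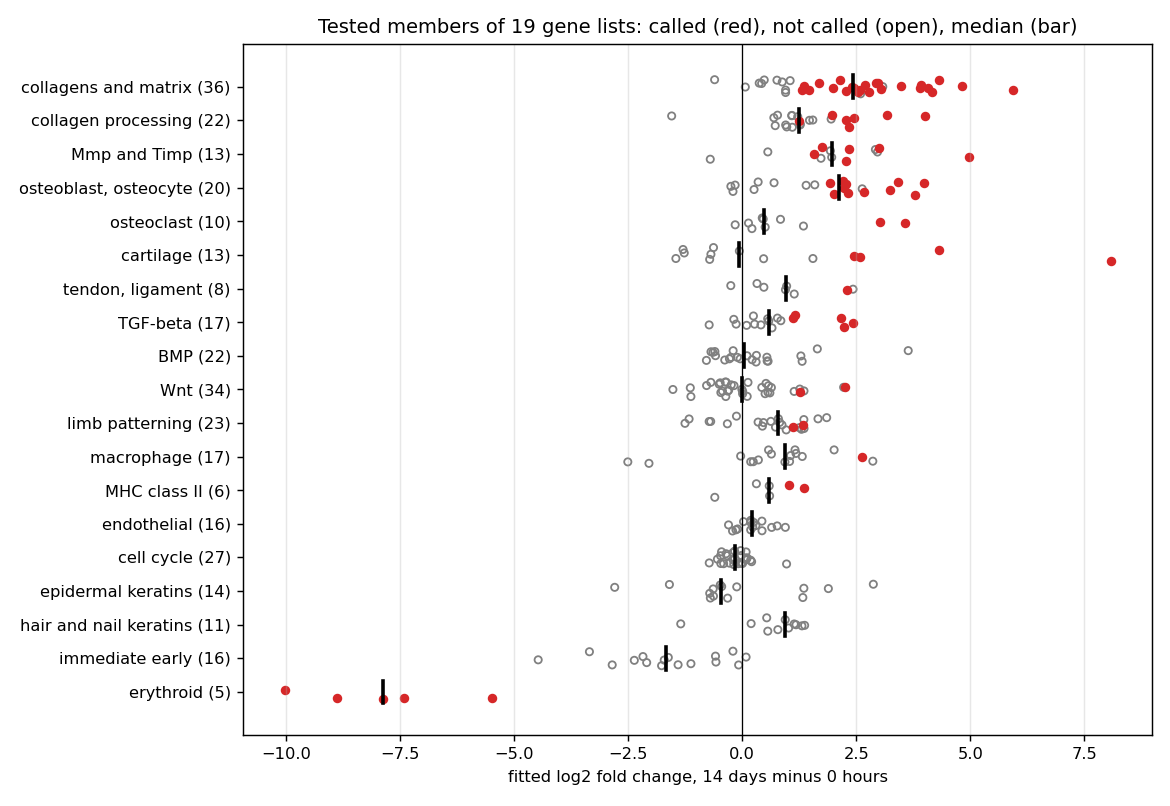
Fitted log2 fold change (14 days minus 0 hours) of the tested members of 19 gene lists, with called members in red, other members open, the median as a black bar and the number of tested members in brackets. The medians run from -7.87 for the erythroid list to 2.43 for collagens and matrix, and cell cycle members lie around 0.

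Bone-forming cell genes were higher at 14 days. In the osteoblast and osteocyte list, 11 of 20 tested members were called higher and none lower, with a median log2 fold change of 2.116. Runx2, the transcription factor that commits cells to bone, had 63.9, 79.9 and 67.4 normalized counts at 0 hours and 257, 246 and 304 at 14 days (log2 fold change 1.93 ± 0.20, SE, edgeR adjusted p = 0.00494), and its locus overlaps antisense transcripts that counting without strand would not separate. Sp7, which acts after Runx2, had 24.6, 16.2 and 10.3 at 0 hours and 285, 84.2 and 135 at 14 days. Both factors were thus above every 0-hour digit in all 3 digits of the later time. Alpl, the phosphatase that frees phosphate for mineral, had 81.1, 67.7 and 141 at 0 hours and 548, 405 and 396 at 14 days (log2 fold change 2.24). Ibsp (chr5:104299171-104311469), the bone sialoprotein that nucleates mineral, had 420, 237 and 592 at 0 hours and 12720, 3411 and 3555 at 14 days, highest in the 42% digit (log2 fold change 3.98). Bglap (chr3:88383501-88384464), osteocalcin, had 11.1, 20.2 and 77.7 at 0 hours and 225, 571 and 283 at 14 days (log2 fold change 3.42, edgeR adjusted p = 0.0468). Bglap has near-identical neighbours, so its share of multiply mapped reads is uncertain. The osteocyte genes Phex and Dmp1, which act in phosphate balance, rose with log2 fold changes of 2.66 and 2.21, and Col24a1, a fibrillar collagen of forming bone, with 3.78 ± 0.31 (SE, edgeR adjusted p = 0.00158). Without the 42% digit 11 members were called, and without 0-hour replicate 2 there were 2. With all 41 digits in 1 fit 1 of the 20 was called, with a median log2 fold change of 2.1115.

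The start regions of 2 genes that rose, Bglap and Mmp13, are shown because both are known targets of Runx2, and Mmp13 also of AP-1. Each run is the 250 bases before the RefSeq start (GRCm38.p6), 5′ to 3′ on the gene's strand. Capitals mark TGTGGT or its reverse ACCACA, the core letters bound by RUNX factors, and in Mmp13 also TGANTCA, the AP-1 letters.
Bglap (chr3:88384467-88384716, minus strand): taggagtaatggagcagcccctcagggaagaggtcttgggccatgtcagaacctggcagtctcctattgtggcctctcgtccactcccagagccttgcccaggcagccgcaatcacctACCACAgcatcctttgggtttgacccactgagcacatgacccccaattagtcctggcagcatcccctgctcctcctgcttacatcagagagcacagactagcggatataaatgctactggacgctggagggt
Mmp13 (chr9:7272264-7272513, plus strand): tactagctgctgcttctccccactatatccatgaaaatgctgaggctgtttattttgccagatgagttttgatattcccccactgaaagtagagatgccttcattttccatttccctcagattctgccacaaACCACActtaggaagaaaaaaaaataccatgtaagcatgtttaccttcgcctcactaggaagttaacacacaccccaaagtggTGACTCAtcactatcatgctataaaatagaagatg
The RUNX letters began 132 bases before the start of Bglap and 118 bases before that of Mmp13, and the AP-1 letters 35 bases before that of Mmp13. Of 27025 promoter windows of this length, 1 per gene symbol, 14.2% held the RUNX letters and 6.87% the AP-1 letters on either strand, and of the 10233 windows of genes tested in the digits 10.4% and 4.79% did. Among called osteoblast and osteocyte genes, 2 of 9 with a window held the RUNX letters, and 17 of 146 (11.6%) did among all genes called higher. A match of letters is a description and says nothing of binding in these digits.

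Of 10 tested osteoclast genes, 2 were called higher and none lower, against 1.49% and 0.187% of all genes. The median log2 fold change was 0.48, with 4 members higher and 0 lower at an unadjusted p under 0.05. The summed normalized TPM of the list was 219, 230 and 253 at 0 hours and 637, 559 and 608 at 14 days, without overlap. Without 0-hour replicate 2 no osteoclast gene was called by edgeR. Ctsk, the collagen-cutting protease of osteoclasts that some fibroblasts also make, had 143, 223 and 435 normalized counts at 0 hours and 1736, 2154 and 2563 at 14 days (log2 fold change 3.02 ± 0.38, SE, edgeR adjusted p = 0.00857). Atp6v0d2, a proton pump subunit needed for osteoclast fusion, had 2.46, 10.1 and 19.1 at 0 hours and 108, 115 and 121 at 14 days (log2 fold change 3.57). Acp5, the classical osteoclast phosphatase, had 88.4, 148 and 119 at 0 hours and 405, 228 and 261 at 14 days, without overlap but with an adjusted p of 0.0601 with edgeR. The receptor Tnfrsf11a had 147, 202 and 314 and then 216, 338 and 355, which overlap.

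Cartilage genes divided. Of 13 tested members 4 were called higher and none lower, while the median log2 fold change was -0.06. Col11a1, a minor fibrillar collagen of cartilage and bone, had 95.2, 120 and 282 normalized counts at 0 hours and 2259, 3683 and 3737 at 14 days (log2 fold change 4.30). Col11a2 and the proteoglycan Acan rose with log2 fold changes of 2.58 and 2.45. Matn3, a matrilin of growing cartilage, had 0 counts in all 3 digits at 0 hours and 13.0, 57.8 and 30.8 normalized counts at 14 days, which is at least 7.7-fold higher when 3 counts in the smallest 0-hour library are taken as the floor. The chondrocyte collagen Col2a1 and transcription factor Sox9 were not called. Col2a1 had 20.3, 80.9 and 271 at 0 hours and 176, 28.4 and 12.3 at 14 days, and Sox9 had 399, 416 and 340 and then 431, 399 and 273, so both overlapped. Without 0-hour replicate 2 no cartilage gene was called by edgeR. In the tendon and ligament list, 1 of 8 members was called higher, and the median log2 fold change was 0.96. The called member was Fmod, a proteoglycan of collagen fibrils, with 665, 552 and 601 at 0 hours and 1464, 3375 and 4094 at 14 days.

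Of the TGF-beta pathway, which drives matrix synthesis in fibroblasts, 5 of 17 tested members were called higher and none lower (median log2 fold change 0.58), and none was called by edgeR without 0-hour replicate 2 or without 14-day replicate 2. The ligand Tgfb3 had 246, 220 and 353 normalized counts at 0 hours and 688, 1495 and 1504 at 14 days (log2 fold change 2.17 ± 0.32, SE, edgeR adjusted p = 0.0151). Inhba, the activin A subunit, had 47.3, 41.5 and 21.99 at 0 hours and 282, 168 and 158 at 14 days, and Tgfb1 had 94.0, 95.0 and 92.4 and then 163, 241 and 222. The target Tgfbi and the latent binding protein Ltbp2 rose with log2 fold changes of 1.115 and 2.23. Neighbouring genes overlap Tgfb3 and Inhba on the other strand. In the BMP list none of 22 members was called by edgeR, with 8 at an unadjusted p under 0.05 and 2 called higher by DESeq2, and the median was 0.03. Bmp2 had 121, 151 and 103 at 0 hours and 113, 164 and 189 at 14 days, which overlap. In the Wnt list 2 of 34 members were called, the secreted Dickkopf relative Dkk3 (440, 418 and 369, then 1055, 2482 and 2348) and the receptor Fzd1 (log2 fold change 1.26), and the median was 0.00. Of 23 limb patterning genes, 2 were called higher, and the median was 0.79. The 2 were Prrx1, a transcription factor of limb mesenchyme (log2 fold change 1.1128 ± 0.21, SE, edgeR adjusted p = 0.0356), and Hoxd13, the Hox gene of the digits (1.34 ± 0.27, SE, edgeR adjusted p = 0.0479). Prrx1 had 416, 551 and 603 at 0 hours and 863, 1240 and 1289 at 14 days, and Hoxd13 had 46.7, 59.6 and 79.2 and then 152, 143 and 172. Prrx1, Hoxd13 and the tendon gene Fmod were each called in 1 of the 6 fits that leave out a digit.

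The falls were led by red blood cell genes. All 5 tested members of the erythroid list were called lower, with a median log2 fold change of -7.87. Hba-a2 (chr11:32296489-32297298), an adult alpha globin, had 4538, 3299 and 10420 normalized counts at 0 hours and 35.0, 18.3 and 22.6 at 14 days (log2 fold change -7.87 ± 0.56, SE, edgeR adjusted p = 0.00107). The beta globin Hbb-bs (chr7:103826534-103828096) had 3632, 1923 and 5312 at 0 hours and 24.4, 8.12 and 34.9 at 14 days (log2 fold change -7.41 ± 0.58, SE, edgeR adjusted p = 0.00146). The second beta globin Hbb-bt had 443, 230 and 547 at 0 hours, and its 14-day digits held 2 counts in all, 1.63, 0 and 0 when normalized. Hba-a1 had 103, 81.9 and 208 at 0 hours and 0 in every 14-day digit, at least 21.3-fold lower against a floor of 3 counts in the smallest 14-day library. Alas2, the red cell enzyme that starts haem synthesis, had 205, 98.1 and 372 and then 3.26, 6.09 and 6.16. The 2 alpha globins and the 2 beta globins are near-identical copies, so the split of reads within each pair is uncertain, and the fall was shared by both pairs. All 5 genes remained called without any single digit.

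Start regions of Hbb-bt and Alas2, as genes that fell together, are shown with the letters AGATAA or its reverse TTATCT, bound by GATA factors, and CACCC or its reverse GGGTG, bound by KLF factors, in capitals, again as the 250 bases before the RefSeq start (GRCm38.p6).
Hbb-bt (chr7:103813924-103814173, minus strand): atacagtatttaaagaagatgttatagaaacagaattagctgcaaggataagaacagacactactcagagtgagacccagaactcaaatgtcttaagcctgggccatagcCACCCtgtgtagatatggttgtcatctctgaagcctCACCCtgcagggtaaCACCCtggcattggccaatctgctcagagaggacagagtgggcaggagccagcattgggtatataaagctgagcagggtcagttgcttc
Alas2 (chrX:150547167-150547416, plus strand): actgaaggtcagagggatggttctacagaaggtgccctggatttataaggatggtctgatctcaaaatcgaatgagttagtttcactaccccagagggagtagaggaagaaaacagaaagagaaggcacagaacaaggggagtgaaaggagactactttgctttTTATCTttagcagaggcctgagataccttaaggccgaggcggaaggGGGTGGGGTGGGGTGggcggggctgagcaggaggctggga
The CACCC letters began 140, 104 and 89 bases before the start of Hbb-bt. In Alas2 the reverse letters began 40, 35 and 30 bases before the start and follow each other without a gap, and the GATA letters began 86 bases before it. All 5 erythroid genes held CACCC letters and 2 held GATA letters, against 51.3% and 10.3% of the 27025 windows and 57.2% and 5.81% of those of tested genes, and CACCC letters stood in 67.8% of the windows of genes called higher.

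Beyond the globins, Scg3, a secretory granule protein of neuroendocrine cells, had 95.8, 127 and 236 at 0 hours and 4.89, 13.2 and 8.21 at 14 days (log2 fold change -4.11 ± 0.51, SE, edgeR adjusted p = 0.00798). Myoc, the secreted protein myocilin, had 550, 453 and 922 at 0 hours and 44.0, 101 and 98.5 at 14 days (log2 fold change -3.00 ± 0.38, SE, edgeR adjusted p = 0.00881). Both genes were several-fold lower in each 14-day digit than in any 0-hour digit. The cytochrome Cyp2f2 and the aldehyde dehydrogenase Aldh3a1, enzymes of xenobiotic and aldehyde metabolism, fell by 2.34 and 2.003 on the log2 scale. Gsn, the actin-severing protein gelsolin, was abundant and had 12070, 11600 and 16600 at 0 hours and 3702, 4808 and 5724 at 14 days (log2 fold change -1.50 ± 0.23, SE, edgeR adjusted p = 0.0164). Vill, a relative of villin, also fell (log2 fold change -1.50). Of 11 smooth muscle genes, 1 was called lower, the smooth muscle myosin Myh11, with 1816, 2347 and 2488 and then 1123, 972 and 971, and of 11 heat shock genes 1 was called lower, Hspa1a (log2 fold change -1.03).

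Immediate early genes, which cells switch on within minutes of a stimulus, were uneven among the 0-hour digits. None of 16 members was called by edgeR. At an unadjusted p under 0.05, 11 were lower, against 698 of all 13334 genes. DESeq2 called 5 lower, and the median log2 fold change was -1.66. Fos had 961, 13870 and 13650 normalized counts at 0 hours and 770, 374 and 129 at 14 days, and Fosb had 378, 8375 and 7683 and then 904, 318 and 386. In 0-hour replicate 1, the digit of the later period and of the right side, both genes were far below the other 2 fresh wounds and near the 14-day digits. Egr1 (831, 4075 and 3757, then 868, 753 and 287) and Jun (1314, 4645 and 4924, then 1155, 787 and 601) had the same form. The summed normalized TPM of the list was 933, 4311 and 3990 at 0 hours and 1031, 642 and 464 at 14 days. Without the 42% digit 6 members were called lower.

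The neutrophil list members S100a8 and S100a9 set 1 digit of the 14-day group apart, while the 5 tested members had a median log2 fold change of 0.16. S100a8, the alarmin subunit that neutrophils hold in bulk, had 12.9, 10.1 and 8.80 normalized counts at 0 hours and 1031, 33.5 and 30.8 at 14 days, and S100a9 had 53.4, 12.1 and 46.9 and then 3517, 47.7 and 12.3. The high value was that of the 42% digit in both, and neither gene was called (edgeR adjusted p = 0.14 and 0.25). The summed normalized TPM of the neutrophil list was 2208 in that digit, 84 and 43 in the other two 14-day digits and 41 to 72 at 0 hours, while the defining receptors Cxcr2 and Csf3r had 70.1 and 66.8 normalized counts there and up to 68.7 and 51.3 at 0 hours. The chemokine Cxcl1 had 5.53, 956 and 268 at 0 hours and 368, 29.4 and 12.3 at 14 days, so it varied widely within both groups. The non-regenerative 14-day digit that shares the label marks had 608 and 1822 normalized TPM of S100a8 and S100a9, against 512 and 1645 in the 42% digit. Their part in the other differences of the 42% digit was not tested.

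Of 17 tested macrophage genes 1 was called higher, Ms4a7, a membrane protein of tissue macrophages, with 19.7, 11.1 and 30.8 normalized counts at 0 hours and 75.8, 136 and 164 at 14 days (log2 fold change 2.62 ± 0.46, SE, edgeR adjusted p = 0.0269). The median log2 fold change of the list was 0.94, with 5 members higher and 1 lower at an unadjusted p under 0.05. Against the lean of the list, Cd163, the haemoglobin scavenger receptor, had 133, 217 and 503 at 0 hours and 25.3, 70.0 and 55.4 at 14 days. It was not called (edgeR adjusted p = 0.0676). Adgre1, which encodes the F4/80 antigen, had 31.3, 49.5 and 71.8 and then 36.7, 83.2 and 119, and the summed normalized TPM of the list was 135, 217 and 457 and then 246, 620 and 558, which overlap. Of 6 MHC class II genes 2 were called higher, H2-Aa (118, 113 and 176, then 308, 402 and 318) and H2-Ab1 (log2 fold change 1.03). With 1 digit left out, Ms4a7 and H2-Aa were each called in 2 of the 6 fits and H2-Ab1 in 1.

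The series also holds bone marrow-derived macrophages, unstimulated (M0) or polarised for 24 hours to M1 or M2, with 3 libraries each. Per the study's methods they came from female mice younger than the male mice of the digits. M1 cells had been given IFN-gamma and LPS, and M2 cells IL-4. Genes higher than in M0 serve as marker lists. There were 2602 such M1 genes (20.1% of those tested there) and 1427 M2 genes (11%). Of the 199 genes called higher at 14 days, 26 (13.1%) were M1 genes and 42 (21.1%) were M2 genes, where 16% and 8.67% of all genes tested in the digits were M1 and M2 genes. These are 1.22% and 3.63% of the M1 and M2 genes tested in the digits, against 1.49% of all genes called higher. The M2 genes with the largest rise were Cthrc1, Capn6 and Mmp13, and the M1 genes were Mmp13, Edil3 and Lox, and Mmp13 is on both lists. With 1 digit left out the overlaps ran from 1 to 41 M1 genes and from 4 to 61 M2 genes, lowest without 0-hour replicate 2 and highest without 14-day replicate 1.

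Of 14 epidermal keratins none was called by edgeR, and DESeq2 called 2 higher. At an unadjusted p under 0.05, 4 were higher and 2 lower, while the median log2 fold change was -0.465. Krt10, a keratin of upper skin layers, had 151600, 134000 and 132200 normalized counts at 0 hours and 115300, 94110 and 96520 at 14 days. Of 11 hair and nail keratins none was called by edgeR, and DESeq2 called 2 higher. At an unadjusted p under 0.05, 2 of these 11 were higher and 1 lower. Krt84, a nail keratin, had 4650, 7799 and 5667 and then 13690, 24090 and 9001. The median log2 fold change of the hair and nail keratins was 0.94, and -0.48 without the 42% digit. The summed normalized TPM of keratin-associated proteins of hair and nail was 20880, 4144 and 924 in the 0-hour digits and 57200, 10340 and 1516 in the 14-day digits, a spread of the same order within both groups. In the basal keratinocyte list, 1 of 12 members was called higher, against 1.49% of all genes. The median of this list was -0.17, and 4 of its members had a positive log2 fold change. At an unadjusted p under 0.05, 2 were higher and 2 lower. The called member was Col7a1, the anchoring fibril collagen under the epidermis (log2 fold change 1.0814 ± 0.19, SE, edgeR adjusted p = 0.026). Col7a1 was called in 1 of the 6 fits with a digit left out. None of 27 cell cycle genes was called by edgeR or DESeq2, with 3 at an unadjusted p under 0.05, and Mki67 had 2420, 1878 and 2187 and then 2048, 1624 and 2112. None of 16 endothelial genes was called by either tool, with 3 at an unadjusted p under 0.05, and Pecam1 had 351, 530 and 581 and then 403, 626 and 458.

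Of 23 glycolysis and hypoxia genes 1 was called higher, against 1.49% of all genes, and the median log2 fold change of the list was -0.25. At an unadjusted p under 0.05, 2 of its members were higher and 6 lower. The called gene was the lactate transporter Slc16a3, with 19.7, 17.2 and 32.3 normalized counts at 0 hours and 149, 80.1 and 73.9 at 14 days (log2 fold change 2.17 ± 0.42, SE, edgeR adjusted p = 0.0418). Slc16a3 was called in 0 of the 6 fits that leave out a digit. No member was called by edgeR or DESeq2 in the lists of 25 cornified envelope, 36 keratin-associated, 12 Schwann cell, 5 neutrophil, 11 cytokine, 16 circadian, 13 mitochondrially encoded, 3 skeletal muscle, 4 sex-linked and 1 melanocyte genes. At an unadjusted p under 0.05 these held 3 cornified envelope and 2 neutrophil genes that were higher and 2 Schwann cell and 1 circadian genes that were lower. Of 6 adipocyte and 7 mast cell genes edgeR called none, with 3 and 1 at an unadjusted p under 0.05, and DESeq2 called 1 of each lower. The fat hormone Adipoq had 10.4, 17.2 and 41.1 at 0 hours and 2.44, 0 and 4.11 at 14 days (edgeR adjusted p = 0.174). None of 12 lymphocyte genes had enough counts to be tested.

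Levels at the other times were compared next. The 24-hour digits were labelled at 41% to 52%, with 1 of the earlier date period and 2 of the later. The 21-day digits were labelled at 48% to 52%, and all 3 were of the earlier period. The mix of date periods thus differs between the times, and the period was not a term in these comparisons. At 24 hours the intermediate digits had 5.25 to 8.42 normalized TPM of Cthrc1, against 2.87 to 11.5 at 0 hours, 174 to 455 at 14 days and 84.0 to 169 at 21 days. Col1a1 had 145 to 426, 130 to 261, 3070 to 5547 and 1632 to 4199 normalized TPM at 0 hours, 24 hours, 14 days and 21 days. Both matrix genes were thus at the 0-hour level at 24 hours and still above it at 21 days. Mmp13 differed, since it had 1.22 to 4.91 normalized TPM at 0 hours and already 20.5 to 82.3 at 24 hours, next to 37.3 to 192 at 14 days. Hba-a2 had 1389 to 4430 normalized TPM at 0 hours, 14.3 to 164 at 24 hours, 7.84 to 15.1 at 14 days and 1.31 to 34.6 at 21 days, so the levels at 24 hours were already below those at 0 hours. In the same test, 14 days against 24 hours called 166 genes higher (1.26%) and 13 lower (0.0987%), 21 days against 0 hours called 164 (1.23%) and 22 (0.165%), and 24 hours against 0 hours called 2 (0.0152%) and 0 (0%). At an unadjusted p under 0.05 they held 2239, 2212 and 2034 genes in that order, against 1790 for 14 days against 0 hours. The few calls at 24 hours thus do not show that few genes differed. These comparisons share digits with the one described, and their counts of called genes ran from 43 to 444, from 45 to 280 and from 1 to 37 with 1 digit left out. Runx2 had a log2 fold change of 1.93 at 14 days and 1.82 at 21 days against the same 0-hour digits, and Myoc had -3.00 and -1.77.

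**Figure D4:**
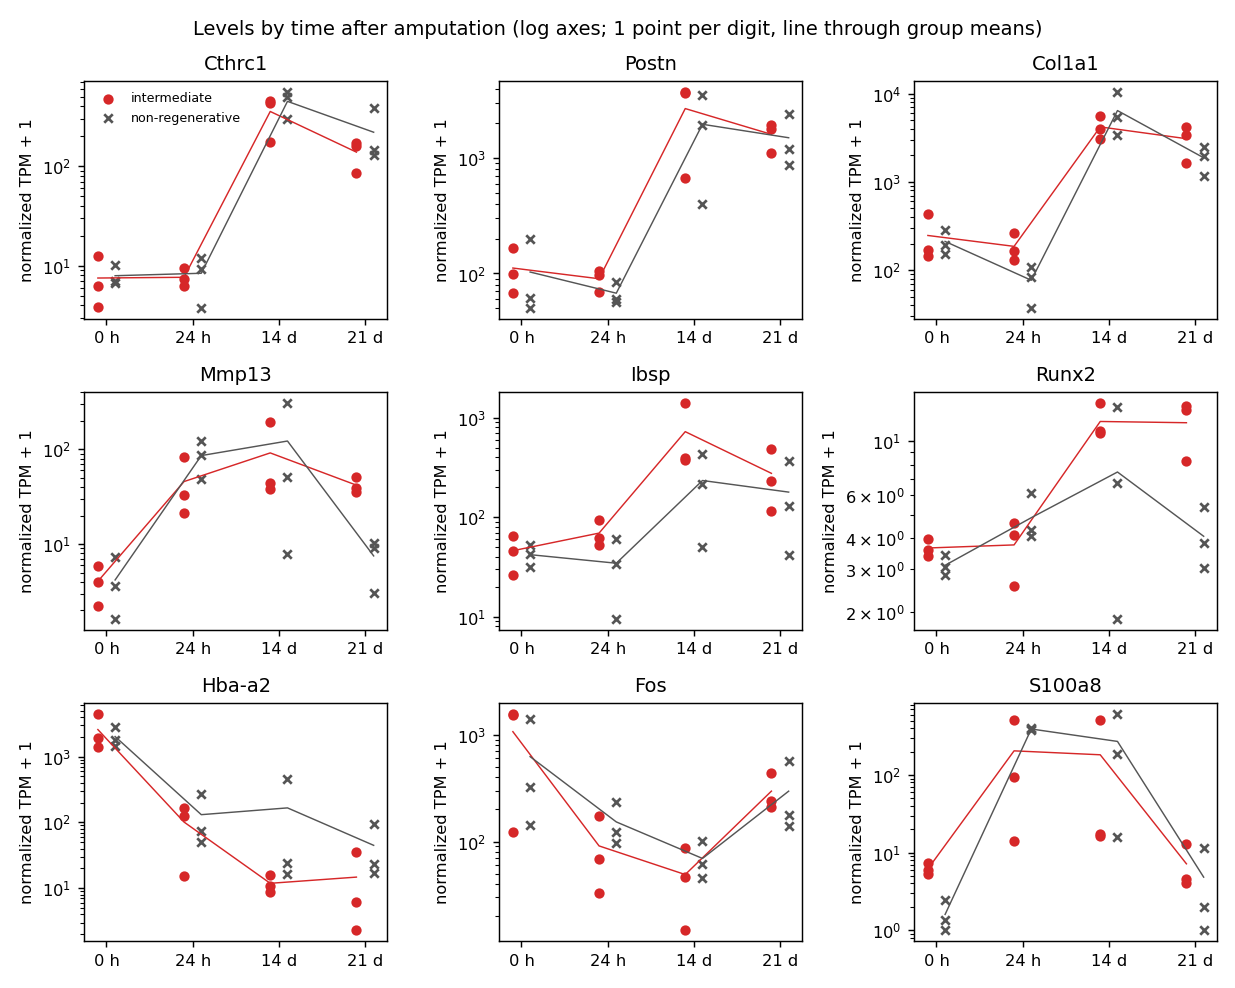
Normalized TPM plus 1 (log axes) of 9 genes at 0 hours, 24 hours, 14 days and 21 days in intermediate (red circles) and non-regenerative (grey crosses) digits, with 1 point per digit and a line through the means of 3. Cthrc1, Postn and Col1a1 are low at 24 hours and high at 14 days, Mmp13 is already high at 24 hours, Hba-a2 is low from 24 hours, and S100a8 is high in 1 intermediate digit at 14 days.

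The same contrast at the higher amputation level shares no digit with the intermediate one. The labelled levels of 3 of these non-regenerative digits, 62%, 62% and 63%, lie below the limit above which the study calls digits non-regenerative. In non-regenerative digits, labelled at 62% to 75% at 0 hours and 63% to 80% at 14 days, edgeR called 0 genes higher (0%) and 0 lower (0%) of 13567, with 1044 at an unadjusted p under 0.05. This count rested on 1 library, 14-day replicate 2 (77%). Without it 247 genes (1.75%) were called higher and 24 (0.17%) lower of 14097, while leaving out any other digit gave 0. These fits with a digit left out were chosen after seeing the data. Of the 199 genes that rose in intermediate digits, 196 were tested with all 6 non-regenerative digits and all 196 had a positive log2 fold change there (median 2.46), where 50.3% of all genes did. Without that library 198 were tested, all 198 were positive (median 2.38) and 136 were called higher. Of the 25 genes that fell, 18 were negative with all digits, where 49.7% of all genes were. Without that library all 25 were negative, where 51.1% of all genes were, and 12 were called lower. Cthrc1 had log2 fold changes of 5.94 in intermediate and 6.08 in non-regenerative digits without that library, Col1a1 4.07 and 4.36, Fbn2 4.81 and 5.31, Runx2 1.93 and 1.90, and Hbb-bs -7.41 and -7.90. Bglap had 3.42 and 0.92. The direct test of a difference between the levels, the interaction of level and time, called 0 of 14133 genes in either direction (0%) with edgeR and 0 with DESeq2, with 507 and 691 at an unadjusted p under 0.05, and 0 of 14446 (0%) without that library, with 312. With 1 digit left out the number at an unadjusted p under 0.05 ran from 205 to 2036, highest without non-regenerative 14-day replicate 1 and at 1835 without replicate 3, and it was 1106 with all 41 digits in 1 fit, again with 0 called. The smallest adjusted p with all 12 digits was 0.855, for Cpxm1, Panx3 and Hist1h4m among others. Panx3, a pannexin channel of osteoblasts and cartilage, had log2 fold changes of 5.90 in intermediate digits and 1.04 in all 6 non-regenerative digits, from 3 counts in all 0-hour intermediate digits together, and Cpxm1, a carboxypeptidase-like secreted protein, had 3.43 and 7.97. Without non-regenerative 14-day replicate 2 the non-regenerative values were 1.44 and 6.93, with adjusted p-values of 0.9999 for the interaction with edgeR.

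**Figure D5:**
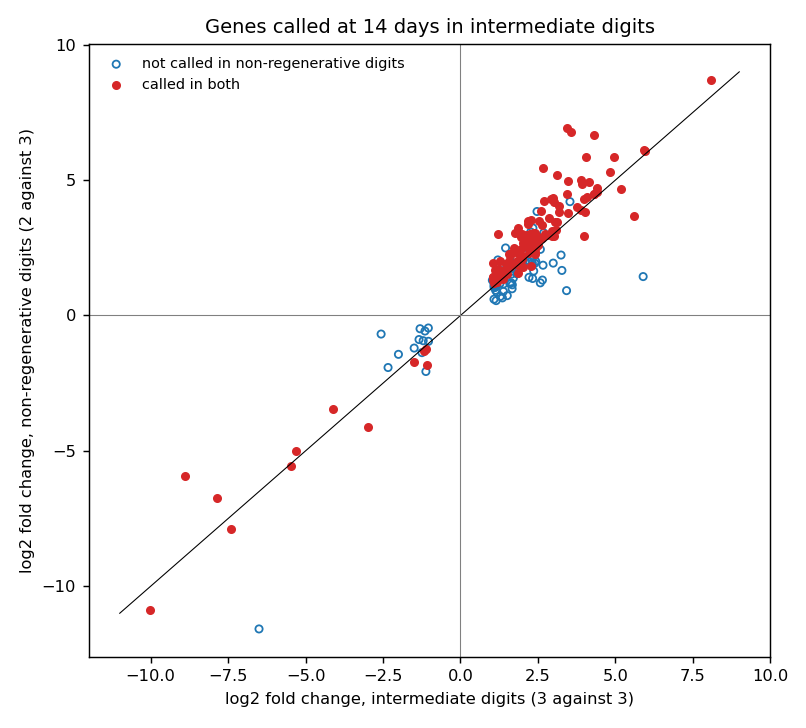
Log2 fold change from 0 hours to 14 days of the genes called in intermediate digits (horizontal axis) against the same contrast in non-regenerative digits without 14-day replicate 2 (vertical axis), with genes called in both in red and the line of equal change. All points lie in the lower left or upper right part, and Panx3 lies below the line with 5.90 and 1.44.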

How the data were processed

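Intermediate digits at 14 days were compared with intermediate digits at 0 hours, 3 against 3. Single-end LM-Seq reads were mapped by the authors with Bowtie to mouse gene models (Ensembl 75, mm10). They deposited RSEM 1.2.3 expected counts for 21954 genes, without normalization. The authors also deposited normalized TPM, a signal made by scaling TPM between libraries by the median-by-ratio method, used here for levels. Multiply mapped reads were split by RSEM, and strand is not given in the sources used here. The tables held dates in place of 26 gene symbols, which were restored.

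Expected counts were rounded, filtered with filterByExpr, TMM-normalized and tested with edgeR 4.0.16 in R 4.3.3 on the 6 libraries alone (glmQLFit, glmQLFTest). Called genes had a Benjamini-Hochberg adjusted p under 0.05 and group means, each raised by 1, that differed over 2-fold. The study used EBSeq at a false discovery rate of 5%, which was not run here. DESeq2 1.42.0 and limma 3.58.1 were alternatives, with other filters, samples and the date period as a term. A count of 0 allows up to 3 counts, which covers counting error only. Named genes were the 12 largest rises and falls with groups that do not overlap and a mean of at least 100, and up to 4 called members (or 2 abundant ones) of each of 36 gene lists, with further list members named for their values. One gene that this rule named is not reported here. The comparison and the lists were chosen with earlier results of these data known. Replicates of a group were compared and differed by far more than counting error. Digits are taken as separate samples, and p-values measure the spread between these digits. Positions are from GENCODE M21 (GRCm38), and 109 of the 224 called genes overlap another annotated gene. Promoter sequences are from RefSeq (GRCm38.p6), found for 146 of 199 and 19 of 25 called genes.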

Additional observations from a re-analysis of the deposited data

How the results depend on the processing

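All 224 called genes kept their direction under every alternative in which they were tested. The alternatives reuse the digits that chose these genes, so a kept direction was likely beforehand and is no separate support. Of the 224 genes, 55 were still called with all 41 digits in 1 fit and 23 without 0-hour replicate 2. Against 199 higher and 25 lower, the counts were 407 and 100 with DESeq2, 157 and 15 with limma-voom, 269 and 55 with no filter on low counts, 50 and 10 with all 41 digits in 1 fit, 325 and 52 with the date period as a term, 301 and 133 in the earlier period alone, 99 and 15 with limma on normalized TPM, and 247 and 105 without 14-day replicate 1 with the period as a term (chosen after seeing the data). RLE normalization, a stricter filter, no fold threshold and a fit of all 12 intermediate digits stayed within 1.5 times. With 1 digit left out they ran from 17 to 322 and from 6 to 71. Members of gene lists, 69 higher and 7 lower, ran from 9 to 82 and from 5 to 21 in the same way. There were 28 higher with all 41 digits, and the lower ones were 21 with DESeq2, 16 unfiltered, 12 with all 12 intermediate digits, 14 with the period, 40 in the earlier period alone and 32 without 14-day replicate 1 with the period as a term. M1 and M2 overlaps, 26 and 42, were 76 and 83 with DESeq2, 46 and 123 with no fold threshold, 7 and 13 with all 41 digits, 52 and 66 with the period, and 1 to 41 and 4 to 61 with 1 digit left out. In comparisons at other times and levels, leaving out 1 digit (chosen after seeing the data) gave 0 to 271 calls in non-regenerative digits, 43 to 444 for 14 days against 24 hours, 45 to 280 for 21 days against 0 hours and 1 to 37 for 24 hours against 0 hours. The interaction called 0 genes in every alternative. The cause of these moves was not tested.

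Some uncalled genes changed sign. In the earlier period alone, log2 fold changes were -0.0319 for Pecam1, -0.0431 for Mal, -1.13 for Hdc, -1.26 for Ptgs2 and -0.0461 for Top2a. With limma-voom they were -0.17 for Pmel, 0.19 for Cxcl1 and -0.0033 for Top2a, with limma on TPM 0.0678 for Flg and 0.0224 for Vwf, and with the period as a term -0.0008 for Top2a. With 1 digit left out they ran from -0.73 to 3.16 for Krtap21-1, -0.0761 to 3.32 for Krtap3-3, -0.45 to 0.12 for Flg, -0.18 to 0.17 for Pecam1, -0.48 to 0.26 for Vwf, -0.46 to 1.0748 for Mal, -0.26 to 5.55 for S100a9, -1.04 to 1.84 for Hdc, -0.59 to 1.03 for Pmel, -4.18 to 0.0816 for Cxcl1, -0.75 to 1.17 for Ptgs2, -0.16 to 0.14 for Top2a, -0.17 to 0.0902 for Bmpr1a and -0.25 to 0.0512 for Ddx3y.

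The titles of the digits carry no replicate numbers to pair them by, and the date period they give was used as a term instead, as above. The macrophage titles are numbered, and with a replicate block in that fit the M1 and M2 overlaps were 26 and 42. With 3 digits a group and a depth from 3408916 counts, genes that did not pass the threshold are not shown to be equal.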
